A study of Mus musculus with 20 samples.

Results

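The genes described here are 9 synaptic adhesion genes of the mouse cochlea, taken by symbol from the 24411 genes of the tables: the neurexins *Nrxn2* and *Nrxn3*, the neuroligins *Nlgn1*, *Nlgn2* and *Nlgn3*, the leucine-rich repeat transmembrane genes *Lrrtm1*, *Lrrtm2* and *Lrrtm4*, and *Cadm1*, which encodes SynCAM1. They were taken as a named group, by a rule that uses no measured value, although earlier results of these data were known when the group was drawn up. All 9 were found in the tables, under 1 row each. RNA-seq was performed on microdissected sensory epithelium and spiral ganglion of the cochlea at postnatal day 7 (P7) and postnatal day 22 (P22), with 4 mice pooled in each library. The controls (Het, *Bai1* tm2b/+) carry 1 tm2b allele and the mutants (Homo, *Bai1* tm2b/tm2b) carry 2, so no library comes from mice without the allele. In the tm2b allele a lacZ reporter cassette stands in place of exons 3 and 4 of *Adgrb1*, the gene for BAI1, in every cell of the mouse. It removes the long isoform of this adhesion G-protein-coupled receptor and leaves the short one. All mice were on the C57BL/6N background, whose *Cdh23* ahl allele is shared by both genotypes. The labels give 1 batch at P22, with 3 libraries of each genotype, and 2 batches at P7, of 3 and of 4 libraries of each genotype, without saying which library belongs to which. P7 replicates 1 to 4 and replicates 5 to 7 were taken as these batches because their values are in different units and their numbers match. Each library is a separate pool, and p values measure the spread between pools.

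Neurexins are presynaptic proteins whose extracellular part reaches across the synaptic cleft. Neuroligins and LRRTMs are postsynaptic partners that bind neurexins and also contact scaffold proteins of the postsynaptic density through their intracellular tails, as BAI1 does. NLGN2 is best known at inhibitory synapses and NLGN1 at excitatory synapses, while NLGN3 occurs at both, and the LRRTMs are known at excitatory synapses. SynCAM1 is an immunoglobulin-type adhesion protein that is present on both sides of the synapse. In the cochlea, the afferent synapse joins an inner hair cell to the terminal of a spiral ganglion neuron. The values are from bulk tissue, in which fewer cells of a type and less RNA per cell cannot be told apart.

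The genes differ widely in size and in the number of annotated starts, and each table value sums all transcripts of a gene. In GENCODE M21 (GRCm38), *Nrxn3* spans 1612.1 kb of the plus strand of chromosome 12 (88722876 to 90334935) and *Lrrtm4* 791.3 kb of the plus strand of chromosome 6 (80018877 to 80810143). *Nlgn2*, on the minus strand of chromosome 11 (69823122 to 69837784), spans 14.7 kb. *Lrrtm1*, on the plus strand of chromosome 6 (77242689 to 77257791), lies within *Ctnna2* on the opposite strand. *Nrxn2* lies on chromosome 19 (6418731 to 6544169), *Nlgn1* on chromosome 3 (25426215 to 26332460, minus strand), *Nlgn3* on chromosome X (101299168 to 101325963) and *Cadm1* on chromosome 9 (47530173 to 47857637). The table of RefSeq starts (GRCm38.p6) held a window for 5 of the 9 genes and for *Lrrtm3*, the LRRTM paralog outside the list. The 100 bases before a start are shown for *Nlgn2*, the neuroligin with the highest level, and for *Nrxn3*, *Lrrtm4* and *Lrrtm3*, which had age differences beyond 2 on the log2 scale in at least 1 genotype, so that the stretches in front of genes that rose and that fell with age can be read side by side. RefSeq gives 3 starts for *Nrxn3*, of which the last along the gene is shown, and 2 for *Lrrtm4*, of which the first is shown. Capitals mark GGGCGG, the GC box, or its reverse complement CCGCCC.
*Nlgn2*, chr11:69837785-69837884, strand minus: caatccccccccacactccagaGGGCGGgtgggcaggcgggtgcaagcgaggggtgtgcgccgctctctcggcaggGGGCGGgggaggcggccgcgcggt
*Nrxn3*, chr12:89812383-89812482, strand plus: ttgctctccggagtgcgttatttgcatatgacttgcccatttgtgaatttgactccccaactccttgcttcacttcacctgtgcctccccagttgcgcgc
*Lrrtm4*, chr6:80018777-80018876, strand plus: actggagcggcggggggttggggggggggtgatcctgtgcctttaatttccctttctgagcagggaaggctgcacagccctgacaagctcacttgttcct
*Lrrtm3*, chr10:64090256-64090355, strand minus: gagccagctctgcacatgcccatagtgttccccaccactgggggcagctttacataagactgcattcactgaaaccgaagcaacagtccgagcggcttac
The GC box on either strand is present in 35.7% of the 32851 start windows of the table, each of 300 bases from 250 before to 50 after the start. The *Nlgn2* window holds 3 matches and 26 CG dinucleotides, against a median of 7 CG dinucleotides over all windows. The other 3 windows shown hold no match, with 16 CG dinucleotides for *Nrxn3*, 10 for *Lrrtm3* and 4 for *Lrrtm4*. At the starts not shown, the other 2 *Nrxn3* windows hold 2 and 6 CG dinucleotides, the latter with 1 match, and the other *Lrrtm4* window holds 9 and no match, so the values depend on the start. These letters describe the windows only.

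The 12 libraries of P22 and of P7 replicates 5 to 7 hold estimated counts, with totals from 31108542 to 58807162 per library. The 8 libraries of P7 replicates 1 to 4 hold TPM, a relative transcript abundance corrected for length, rounded to whole numbers, in which a gene at a low level has only a few possible values and read depth is not given. The members' counts ranged from 53 in a P22 Het library (*Lrrtm2*) to 13197 in a P7 Het library (*Cadm1*). Levels in CPM (counts relative to library size) are on 1 TMM scale over the 12 count libraries. A gene was called where the adjusted p value was under 0.05, the log2 fold change was beyond 0.5 in either direction and its standard error (SE) was under 0.5. *Adgrb1* had 154, 152 and 167 CPM in P22 Het and 103, 100 and 105 CPM in P22 Homo libraries, and its log2 fold change was -0.61 (SE 0.0585, edgeR adjusted p = 0.000602). These values include exons outside the deleted part, so they do not check the allele itself. At P7 *Adgrb1* was lower in each of the 3 Homo libraries in counts without passing the test (-0.64, SE 0.227, edgeR adjusted p = 0.894), and in rounded TPM, at 10, 12, 8 and 7 in Het and 9, 9, 10 and 12 in Homo libraries, the genotypes overlapped (0.02, SE 0.13, limma adjusted p = 0.93).

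Read per kilobase of transcript (CPM divided by the length of the longest coding transcript), the members ranged from abundant to scarce. In P22 Het libraries, *Nlgn2* had the highest level (45.6 ± 1.85 CPM per kb, SD, n = 3), followed by *Cadm1* (39.4 ± 4.03) and *Nrxn2* (32.1 ± 1.98). *Lrrtm1* (7.92 ± 1.24), *Lrrtm4* (2.55 ± 0.115) and *Nlgn3* (2.21 ± 0.223) were in the middle, and *Nrxn3* (0.6 ± 0.0914), *Lrrtm2* (0.335 ± 0.0494) and *Nlgn1* (0.325 ± 0.0158) were lowest. The libraries of neighbouring genes in this order did not overlap, except for *Lrrtm2* and *Nlgn1*. In P22 Homo libraries the order was the same down to *Nlgn3*, while *Lrrtm2* (0.378 ± 0.0488), *Nlgn1* (0.377 ± 0.0448) and *Nrxn3* (0.326 ± 0.0397) overlapped in turn at the bottom. In P7 Het libraries in counts, *Cadm1* (37.2 ± 9.53) and *Nlgn2* (30.3 ± 0.74) overlapped at the top. *Lrrtm4* (15.7 ± 0.707), *Nrxn2* (12.9 ± 3.03) and *Lrrtm1* (12.5 ± 2.27) formed the next group at P7, each overlapping its neighbour, so that *Lrrtm4* stood beside *Nrxn2* at P7 and far under it at P22. In rounded TPM, which is also per length, *Cadm1* was the highest of the 9 in both genotypes at P7 (109 ± 13.1 TPM in Het, 132 ± 19.9 in Homo, n = 4) and *Lrrtm2* the lowest (1.25 ± 0.5 and 1.5 ± 0.577). The order between them was not the same on both scales. In P7 Het libraries *Nrxn3* and *Nlgn1* overlapped in TPM (2.75 and 3.5) and were at 2.35 and 0.548 CPM per kb.

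**Figure D1:**
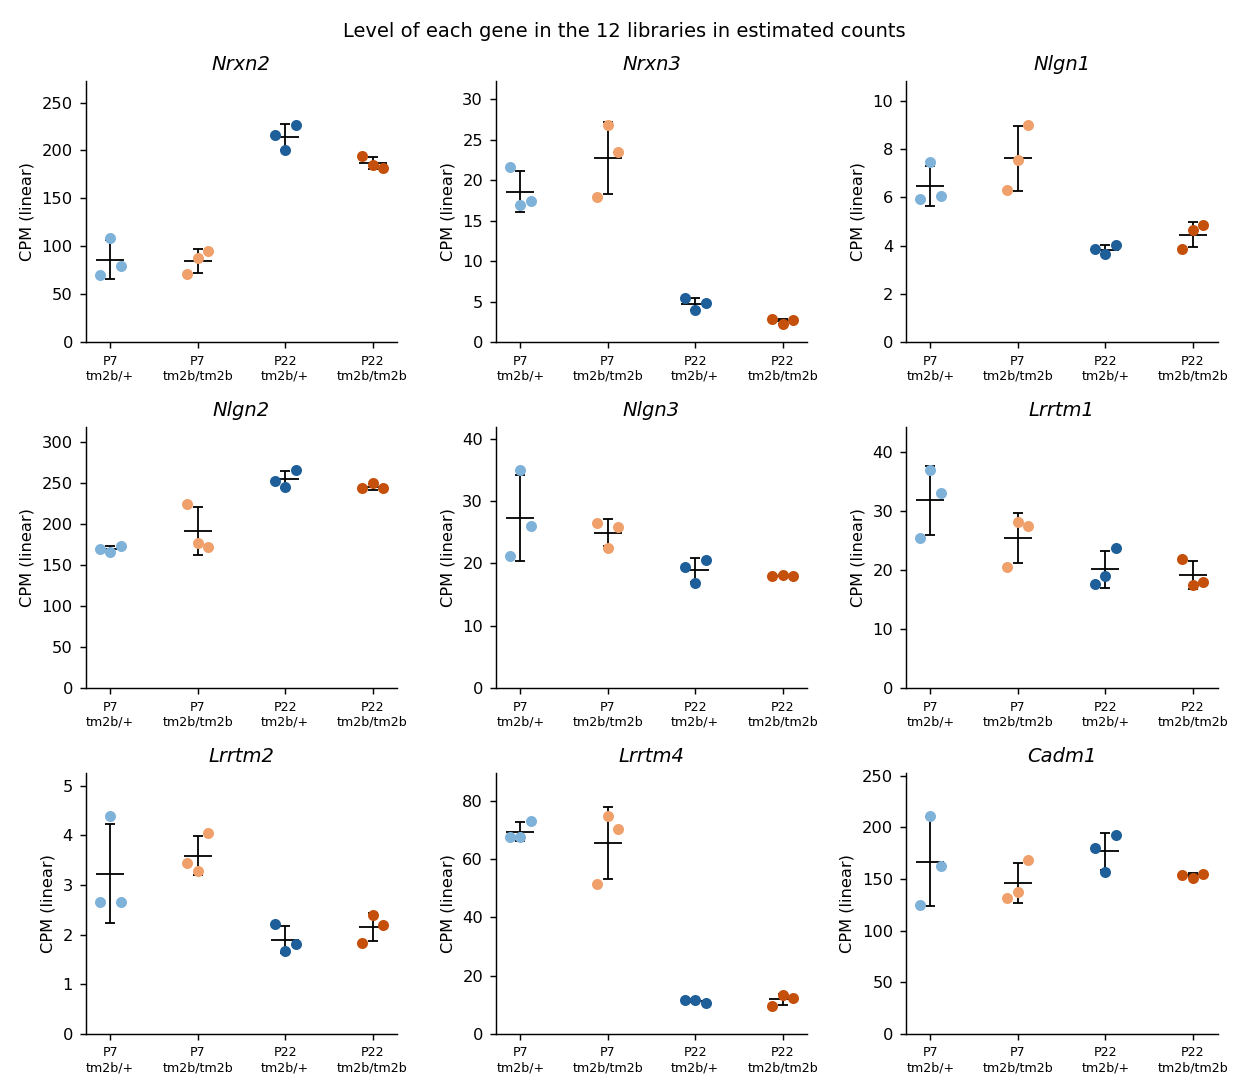
Each panel plots 1 gene in CPM on a linear axis from 0, with 1 point for each of the 12 libraries in estimated counts, grouped by age and *Bai1* genotype, and with the mean and SD of the 3 libraries in black. *Nrxn3* and *Lrrtm4* lie lower in every P22 library than in every P7 library, *Nrxn2* and *Nlgn2* higher, and *Cadm1* overlaps between the ages.

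The next comparison asked how the levels at P22 differ from those at P7. In Het libraries, 8 of the 9 members were called, 2 higher (*Nrxn2* and *Nlgn2*) and 6 lower (*Lrrtm4*, *Nrxn3*, *Lrrtm2*, *Nlgn1*, *Lrrtm1* and *Nlgn3*), and *Cadm1* was not. In Homo libraries 5 were called, *Nrxn2* higher and *Nrxn3*, *Lrrtm4*, *Nlgn1* and *Lrrtm2* lower. Large parts of the transcriptome differed between the ages: 51.8% of 16314 genes tested were called in Het and 49.3% in Homo libraries. The median log2 fold change of the 9 members was -0.66 in Het and -0.47 in Homo, beside -0.06 and -0.04 over all genes tested. The count of members called in Homo is therefore close to the share over all genes. The P22 and P7 libraries belong to separate batches, so age and batch cannot be told apart.

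Of the 2 members that are neurexins, *Nrxn2* rose and *Nrxn3* fell. *Nrxn2* had 69.9, 109 and 79.2 CPM in P7 Het and 216, 200 and 227 CPM in P22 Het libraries, and 70.9, 88 and 94.8 CPM in P7 Homo and 194, 185 and 182 CPM in P22 Homo libraries. No P22 library overlapped a P7 library, and the rise was 2.49-fold in Het (log2 1.32, SE 0.145, edgeR adjusted p = 3.67e-06) and 2.21-fold in Homo (log2 1.15, SE 0.145, edgeR adjusted p = 1.38e-05). *Nrxn3* had 21.6, 17 and 17.4 CPM in P7 Het and 5.43, 3.99 and 4.84 CPM in P22 Het libraries. In Homo libraries it had 18, 26.9 and 23.5 CPM at P7 and 2.82, 2.23 and 2.71 CPM at P22. Every P22 library was lower than every P7 library in both genotypes, by 3.91-fold in Het (log2 -1.97, SE 0.171, edgeR adjusted p = 4.25e-07) and 8.81-fold in Homo (log2 -3.14, SE 0.181, edgeR adjusted p = 1.93e-08).

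Among the LRRTM genes, *Lrrtm4* had the largest fall of the 9 members in Het libraries. It had 67.8, 67.6 and 73.1 CPM in P7 Het and 11.7, 11.5 and 10.7 CPM in P22 Het libraries, and 51.5, 74.8 and 70.5 CPM in P7 Homo and 9.57, 13.4 and 12.4 CPM in P22 Homo libraries. The ages were far apart in both genotypes, 6.14-fold in Het (log2 -2.62, SE 0.147, edgeR adjusted p = 1.2e-08) and 5.56-fold in Homo (log2 -2.48, SE 0.145, edgeR adjusted p = 2.15e-08). Of the exon bases of *Lrrtm4*, 25.1% lie opposite the exons of *Gm4409*, and whether the counting used strand is not stated. *Lrrtm2* was at 2.66, 4.39 and 2.66 CPM in P7 Het and 2.21, 1.67 and 1.82 CPM in P22 Het libraries and fell in both genotypes (log2 -0.77, SE 0.23, edgeR adjusted p = 0.00883 in Het, and -0.75, SE 0.228, adjusted p = 0.0105 in Homo). *Lrrtm1* had 25.5, 36.9 and 33 CPM in P7 Het and 17.7, 19 and 23.7 CPM in P22 Het libraries. Its ages did not overlap in Het and it was called lower there (log2 -0.66, SE 0.164, edgeR adjusted p = 0.00285). In Homo its libraries overlapped between the ages and the difference stayed under the fold limit (-0.41, SE 0.164, adjusted p = 0.0386). The paralog *Lrrtm3* moved the other way, with 4.41, 13.8 and 8.9 CPM in P7 Het and 41.2, 44.6 and 47.8 CPM in P22 Het libraries (log2 2.29, SE 0.315, edgeR adjusted p = 2.69e-05).

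Of the neuroligins, *Nlgn2* rose, and *Nlgn1* and *Nlgn3* fell. *Nlgn2* had 169, 165 and 173 CPM in P7 Het and 252, 245 and 265 CPM in P22 Het libraries, a 1.5-fold rise (log2 0.59, SE 0.0917, edgeR adjusted p = 7.89e-05). In Homo libraries the rise of *Nlgn2* passed the p threshold but not the fold limit (log2 0.36, SE 0.0915, edgeR adjusted p = 0.00329), from 224, 177 and 172 CPM at P7 to 244, 249 and 243 CPM at P22. The P7 Homo replicate 5 was the highest of the P7 libraries for this gene. *Nlgn1* was between 5.91 and 7.44 CPM in P7 Het and between 3.65 and 4.02 CPM in P22 Het libraries (log2 -0.76, SE 0.162, edgeR adjusted p = 0.001), and its fall in Homo was of like size (-0.78, SE 0.16, edgeR adjusted p = 0.00078). *Nlgn3* was between 21.2 and 34.9 CPM in P7 Het and between 16.8 and 20.5 CPM in P22 Het libraries and passed narrowly in Het (log2 -0.53, SE 0.149, edgeR adjusted p = 0.00621), while in Homo it stayed under the fold limit (-0.47, SE 0.15, adjusted p = 0.0132). Exons of *Gm21986* on the same strand cover 41.2% of the exon bases of *Nlgn3*, so its counts are uncertain. *Cadm1* overlapped between the ages in both genotypes (log2 0.08, SE 0.155, edgeR adjusted p = 0.636 in Het, and 0.07, SE 0.155, adjusted p = 0.686 in Homo). With library size alone as the scale, the median over all genes was -0.35 in Het and -0.32 in Homo, and 30.9% and 31.7% of all calls were higher at P22 in place of 47.9% and 49.1%. *Nlgn2* in Het then fell under the fold limit (0.29), *Nlgn3* (-0.75) and *Lrrtm1* (-0.69) passed in Homo, and *Cadm1* turned negative without passing (-0.21 in both genotypes).

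**Figure D2:**
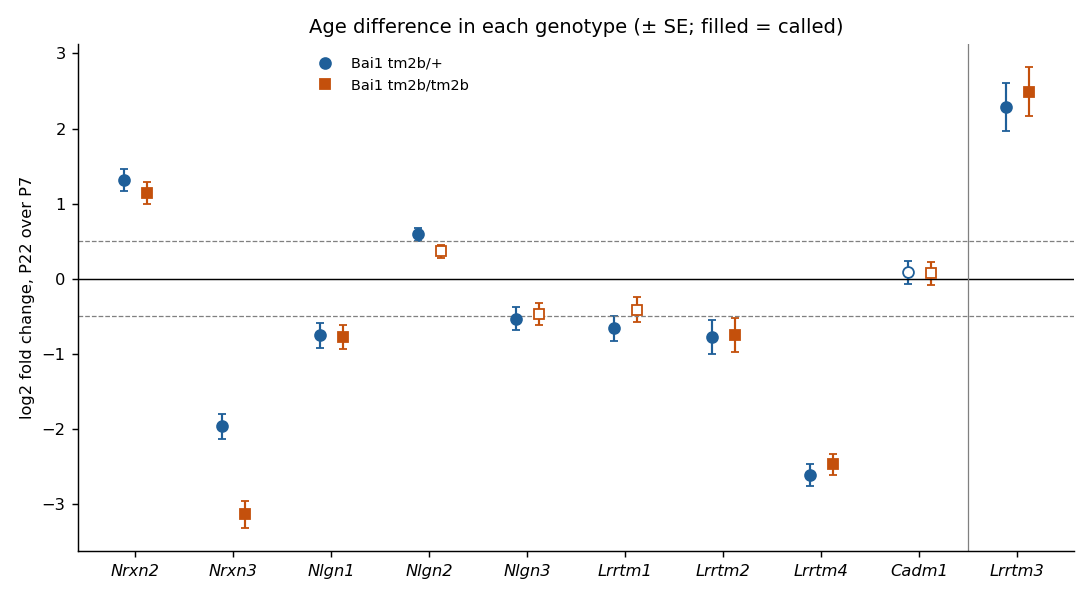
The log2 fold change of P22 over P7 (edgeR, ± SE) is plotted for the 9 members and, right of the line, the paralog *Lrrtm3*, with circles for *Bai1* tm2b/+ and squares for *Bai1* tm2b/tm2b libraries, filled where called. Dashed lines mark the fold limit of 0.5, and the points run from -3.14 for *Nrxn3* in Homo to 2.49 for *Lrrtm3* in Homo libraries.

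Marker lists moved with age in the same libraries. The summed level of 8 neuron markers was 1378 to 2827 CPM in P7 Het and 14344 to 16256 CPM in P22 Het libraries, and 1126 to 1725 CPM in P7 Homo and 10632 to 12192 CPM in P22 Homo libraries. The sum of 6 Schwann cell and myelin markers was also higher at P22, at 20473 to 21708 CPM against 9253 to 15649 CPM in Het, whereas 7 markers of brain neurons summed to 29.6 to 37.9 CPM in P7 Het and 4.25 to 8.32 CPM in P22 Het libraries. The sums of 8 hair cell and 5 supporting cell markers were lower at P22, at 426 to 449 CPM against 595 to 886 CPM for hair cell and 1016 to 1202 CPM against 1592 to 2045 CPM for supporting cell markers in Het libraries. The sum of 6 central glia markers overlapped between the ages in Het. Within P7, 6 of the 7 brain neuron markers had a positive log2 fold change in Homo (median 0.94, none called), and their sum of 37.4 to 47.2 CPM in Homo overlapped the Het range. Of these 7, *Neurod2*, *Neurod6* and *Slc32a1*, singled out after their values were seen, were highest in Homo replicates 6 and 7, where *Neurod2* reached 5.51 and 6.21 CPM against 0.283 to 0.75 CPM in Het. The part of these cell types in the age differences was not tested. An alternative chosen after seeing the data left out Homo replicates 6 and 7, so that only replicate 5 remained in P7 Homo. The log2 fold changes in Homo were then -2.79 for *Nrxn3*, -2.12 for *Lrrtm4*, 1.41 for *Nrxn2* and -0.55 for *Nlgn3*. For *Lrrtm2* and *Nlgn1* they were -0.68 and -0.50. In Het libraries, *Lrrtm2* was not called without P7 Het replicate 6 (adjusted p = 0.0612), which had the highest *Lrrtm2* level and the highest neuron marker sum of the P7 libraries in counts. In Homo libraries, *Lrrtm1* passed without P22 Homo replicate 1 (-0.52) or P7 Homo replicate 5 (-0.54), and *Nlgn3* without P7 Homo replicate 6 (-0.54). *Nlgn3* in Het was likewise not called without P7 Het replicate 6 or P22 Het replicate 2, with log2 fold changes of -0.32 and -0.45, nor in DESeq2 (-0.50, adjusted p = 0.00338), where it fell just under the fold limit.

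The shares of the genes within their families also differed between the ages. Of the summed CPM per kb of *Nrxn2* and *Nrxn3*, *Nrxn3* made up 15.9% ± 4.5 (SD, n = 3) in P7 Het and 1.83% ± 0.222 in P22 Het libraries, and 18.4% ± 1.74 and 1.15% ± 0.127 in Homo. *Nrxn2* was the larger of the pair in every library. In the LRRTM family the leading gene changed. *Lrrtm4* went from 50.9% ± 6.03 in P7 Het to 11.6% ± 1.47 in P22 Het libraries, and *Lrrtm3* from 7.24% ± 3.11 to 51.4% ± 0.99. In Homo libraries *Lrrtm4* went from 55.2% ± 1.21 to 14.8% ± 2.15, and at P22 *Lrrtm1* (41.9% ± 6.35) and *Lrrtm3* (41.2% ± 4.08) had like shares. *Lrrtm1* kept 35.5% to 41.9% on average and *Lrrtm2* had a mean of 2.42% or less. In the neuroligin family *Nlgn2* made up 89% ± 2.48 in P7 Het and 94.7% ± 0.296 in P22 Het libraries, with *Nlgn1* at 1.75% or less on average. In rounded TPM at P7 the share of *Nlgn2* was 71.5% ± 2.32 in Het and 72.2% ± 0.131 in Homo libraries (n = 4). There *Nlgn3* made up 22.4% ± 1.54 and 23.2% ± 0.479, and *Nlgn1* 6.13% ± 1.59 and 4.62% ± 0.544. These 2 sets of P7 libraries differ in unit and in batch, which cannot be told apart.

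**Figure D3:**
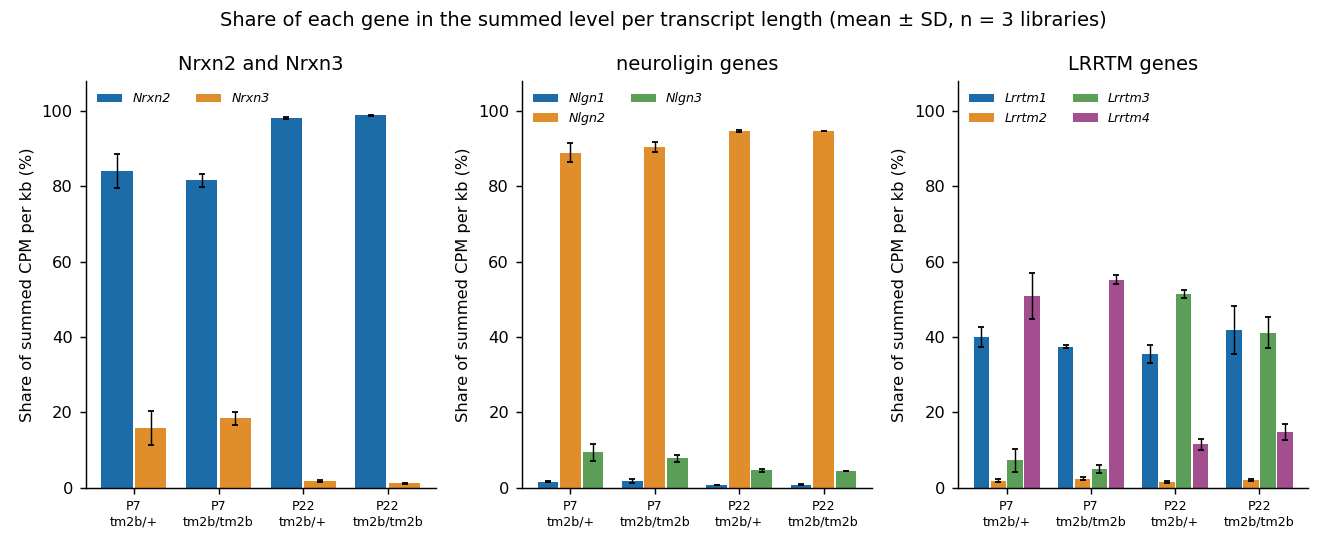
Bars give the mean share of each gene in the summed CPM per kb of the genes in its panel, in percent from 0, for *Nrxn2* and *Nrxn3*, for the neuroligins and for the LRRTMs, in the 4 groups of age and *Bai1* genotype, with the SD of 3 libraries. *Lrrtm4* is the largest LRRTM bar at P7 and *Lrrtm3* the largest in P22 Het, while *Nrxn2* and *Nlgn2* lead their panels in all 4 groups.

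The genotype comparison at P22 asked which members differ between mutants and heterozygous controls after the onset of hearing. *Nrxn3* was lower in Homo than in Het libraries and was the 1 member called, of 9 tested, where 3.15% of 15443 genes tested were called (269 genes up and 218 down). Its levels of 5.43, 3.99 and 4.84 CPM in Het and 2.82, 2.23 and 2.71 CPM in Homo libraries rest on 127 to 177 and 84 to 104 counts. The groups did not overlap, and *Nrxn3* was 1.83-fold lower in Homo (log2 -0.87, SE 0.19, edgeR adjusted p = 0.0162). The call was lost when Het replicate 1 (log2 -0.77, adjusted p = 0.0783), Het replicate 3 (-0.86, 0.0559) or Homo replicate 2 (-0.77, 0.0609) was left out, with the direction kept in all 6 such fits. Beside *Nrxn2*, *Nrxn3* was scarce at P22, and the summed level of the pair was 32.7 ± 2.04 CPM per kb in Het and 28.4 ± 0.992 in Homo libraries.

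*Nrxn2* and *Cadm1* were also lower in every P22 Homo library than in any P22 Het library but were not called. *Nrxn2* had 216, 200 and 227 CPM in Het and 194, 185 and 182 CPM in Homo libraries (log2 -0.19, SE 0.0608, edgeR adjusted p = 0.0697). *Cadm1* had 180, 157 and 193 CPM in Het and 154, 151 and 155 CPM in Homo libraries (log2 -0.20, SE 0.0733, edgeR adjusted p = 0.106). With *Nrxn3*, 3 of 9 members had groups that did not overlap, and so did 33.7% of all genes tested. The other 6 members overlapped between genotypes, with log2 fold changes from -0.07 for *Lrrtm1* to 0.22 for *Nlgn1*. For the neuroligins, *Nlgn2* had 252, 245 and 265 CPM in Het and 244, 249 and 243 CPM in Homo libraries (log2 -0.04, SE 0.0537), and *Nlgn3* and *Nlgn1* had log2 fold changes of -0.06 (SE 0.093) and 0.22 (SE 0.164). For the LRRTMs, *Lrrtm4* (0.07, SE 0.133), *Lrrtm1* (-0.07, SE 0.124) and *Lrrtm2* (0.18, SE 0.23) lay within 1 SE of 0, and their standard errors leave a change of the size of the fold limit within reach for *Lrrtm2*. The median over the 9 members was -0.06 beside 0.01 over all genes tested.

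Cell type markers differed between the P22 genotypes in the same libraries. All 8 neuron markers were lower in Homo (median log2 fold change -0.36, 1 called), and their sum of 14344 to 16256 CPM in Het and 10632 to 12192 CPM in Homo libraries did not overlap. All 8 hair cell markers were higher (median 0.54, 3 called; 426 to 449 CPM in Het and 538 to 640 CPM in Homo), as were all 6 central glia markers (median 0.74, 4 called; 462 to 603 CPM and 670 to 1046 CPM). The 5 supporting cell markers were higher without a call (median 0.21), and the Schwann cell list was split, with 3 of 6 higher. When the libraries were scaled to the neuron markers instead, which moved the median of all genes from 0.01 to 0.34 and the share of calls that were higher from 55.2% to 98.5%, *Nrxn3* was still called lower (log2 -0.55, SE 0.205, edgeR adjusted p = 0.0395) and *Nlgn1* was called higher (0.55, adjusted p = 0.0346). Under that scale *Nrxn2* (0.14), *Cadm1* (0.13), *Nlgn2* (0.28), *Nlgn3* (0.27) and *Lrrtm1* (0.25) were positive without a call, as differences smaller than the shift of all genes must be. This scaling shifts all genes together and does not separate fewer cells from less RNA per cell. The part of the cell types in these differences was not tested.

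**Figure D4:**
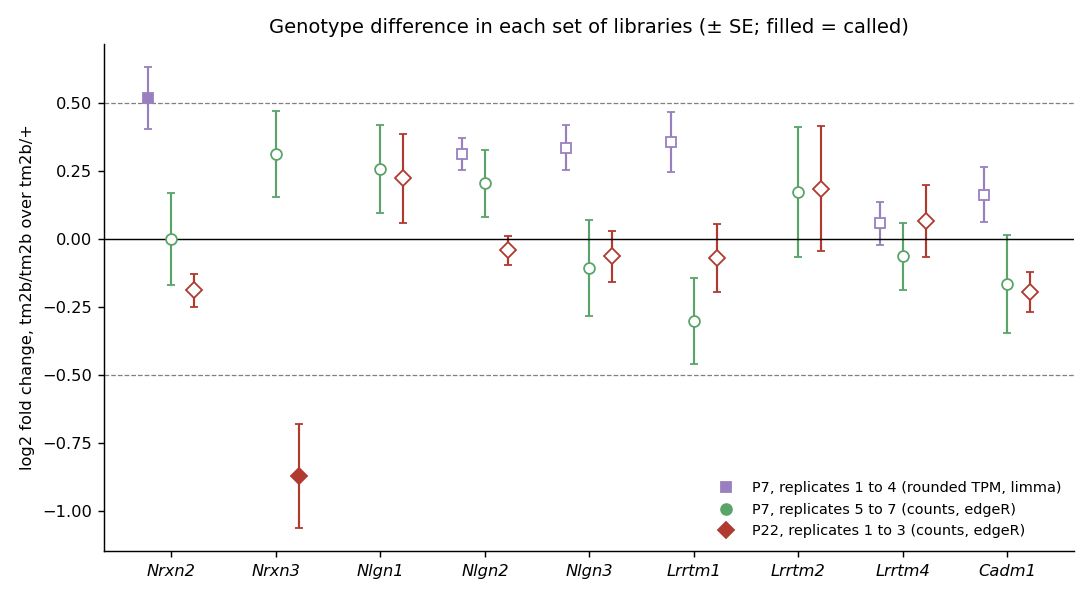
The log2 fold change of *Bai1* tm2b/tm2b over tm2b/+ (± SE) is plotted for each member in the 3 sets of libraries, squares for P7 rounded TPM, circles for P7 counts and diamonds for P22 counts, filled where called. The filled points are *Nrxn3* at P22 (-0.87) and *Nrxn2* in P7 rounded TPM (0.52), and *Nrxn3*, *Nlgn1* and *Lrrtm2* have no TPM point because their mean was under 5.

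At P7, before the onset of hearing, the 3 libraries of each genotype in counts gave no member called (edgeR, 0.0% of 16026 genes tested). No member was below 0.05 in the unadjusted p value either, as 763 genes were, and DESeq2 called 51 genes, none of them a member. The groups of all 9 members overlapped, while 10.7% of all genes tested did not. *Nrxn3* had 21.6, 17 and 17.4 CPM in Het and 18, 26.9 and 23.5 CPM in Homo libraries (log2 0.31, SE 0.158, edgeR adjusted p = 0.894). Homo replicates 6 and 7, singled out above for *Neurod2*, lay above all Het libraries. Without these 2 libraries, an alternative chosen after seeing the data, the log2 fold change of *Nrxn3* was 0.011. They are also the Homo libraries with the highest *Nrxn3* levels, and only Homo replicate 5, within the Het range, is then left. A small difference therefore followed from the choice of libraries, and no cause was tested. *Lrrtm1* had the largest negative difference (log2 -0.30, SE 0.158). *Nlgn1* (0.26, SE 0.161), *Nlgn2* (0.20, SE 0.123) and *Lrrtm2* (0.17, SE 0.238) were above 0 and *Cadm1* (-0.17, SE 0.18), *Nlgn3* (-0.11, SE 0.177) and *Lrrtm4* (-0.06, SE 0.123) below, and *Nrxn2* was at -0.0009 (SE 0.168). The P7 Het replicate 6 had the highest *Nrxn2* (109 CPM), *Cadm1* (211 CPM), *Nlgn3* (34.9 CPM) and *Lrrtm1* (36.9 CPM) levels of the P7 libraries together with the highest neuron marker sum (2827 CPM). All 8 neuron markers had negative log2 fold changes in this comparison (median -0.33), with none called, as had all 6 Schwann cell markers (-0.35). All 8 hair cell markers were positive (0.14), as were 3 of 5 supporting cell and 4 of 6 central glia markers, none called.

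The P7 libraries in rounded TPM, 4 of each genotype, asked the same question in the other batch. Of the 9 members, 6 had a mean of at least 5 TPM and were tested, all 6 with a positive difference, and 1, *Nrxn2*, was called, where 0.826% of 11740 genes tested were called (79 up and 18 down). Differences here are on the log2 scale of TMM-scaled TPM plus 1, tested with limma. *Nrxn2* was listed at 24, 26, 18 and 18 TPM in Het and 27, 36, 33 and 38 TPM in Homo libraries. The groups did not overlap and the difference was 0.52 (SE 0.114, limma adjusted p = 0.0439), just past the fold limit. It was not called without Het replicate 2, 3 or 4 or without Homo replicate 2, 3 or 4, where the adjusted p values lay between 0.0638 and 0.124, and it stayed called without Het replicate 1 or Homo replicate 1. *Nlgn2* was listed at 45, 42, 37 and 38 TPM in Het and 49, 57, 55 and 57 TPM in Homo libraries (0.31, SE 0.0598, limma adjusted p = 0.0435), and *Nlgn3* at 14, 15, 11 and 11 TPM in Het and 16, 18, 18 and 18 TPM in Homo libraries (0.34, SE 0.0837, limma adjusted p = 0.0463). Both passed the p threshold and stayed under the fold limit. *Lrrtm1* was listed at 23, 24, 15 and 20 TPM in Het and 27, 30, 26 and 30 TPM in Homo libraries (0.36, SE 0.11, limma adjusted p = 0.0622). These 4 of the 6 members tested had groups that did not overlap, against 14.8% of all genes tested. *Cadm1* (0.16, SE 0.102) and *Lrrtm4* (0.06, SE 0.0787) overlapped, and *Nrxn3*, *Nlgn1* and *Lrrtm2*, at 6 TPM or less in every library, were not tested.

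In these 8 libraries the log2 fold change of a gene went with its transcript length (Spearman rho 0.602 across the 96.6% of tested genes with a length, which are not independent replicates), with longer genes higher in Homo. With the trend on length removed from each library, *Nrxn2* was at 0.35 (limma adjusted p = 0.109) and no gene was called. The neuron markers were higher in 7 of 8 cases here (median 0.23, none called; summed TPM 1918 to 3089 in Het and 2483 to 3353 in Homo), opposite to their sign in both count sets. Of the hair cell markers 4 of 8 were higher with 1 called, of the supporting cell markers 3 of 5 with 1 called, and of the Schwann cell markers 2 of 6 with 1 called lower, while all 5 central glia markers tested were lower with 1 called. With TPM taken as deposited, without TMM scaling, the median over all genes was 0.12 and 96.9% of 292 calls were higher, in place of 81.4% of 97, and *Nrxn2* was still called. *Nrxn2* at P7 thus had a difference of 0.52 in 1 batch and of -0.0009 in the other, and the batches differ in unit as well as in dissection and run, so these cannot be told apart.

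**Figure D5:**
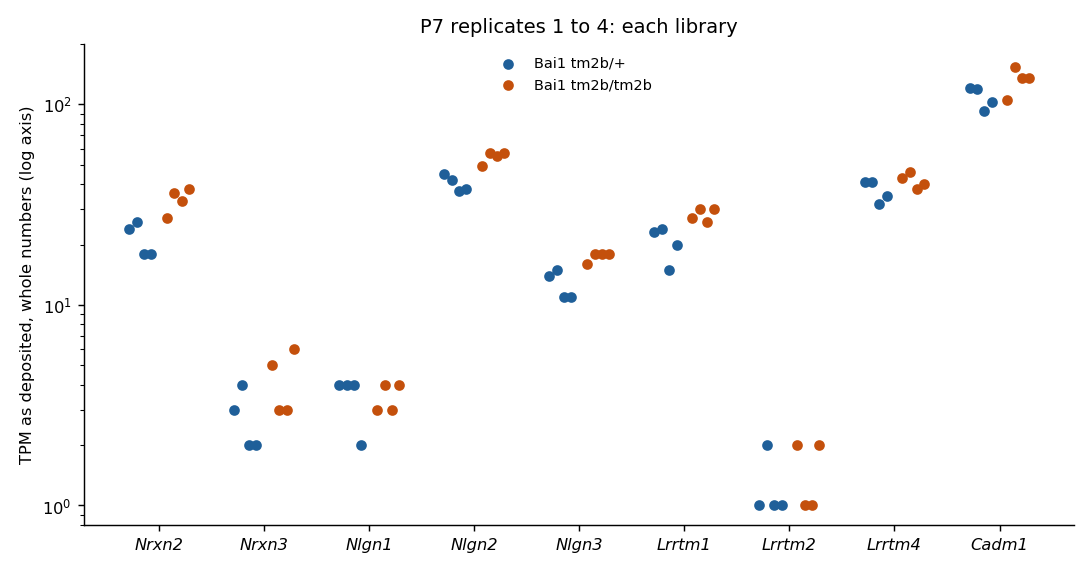
Whole-number TPM as deposited is plotted on a log axis for each member in the 8 libraries of P7 replicates 1 to 4, blue for *Bai1* tm2b/+ and orange for *Bai1* tm2b/tm2b. The Homo libraries of *Nrxn2* (27 to 38) lie above the Het libraries (18 to 26), and *Lrrtm2* takes only the values 1 and 2.

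Whether the genotype difference itself changed from P7 to P22 was tested in the 12 libraries in counts. No member was called in edgeR, where 0.0306% of 16314 genes tested were called (5 genes). *Nrxn3* came nearest, with a change in the genotype difference of -1.17 on the log2 scale (SE 0.243, edgeR unadjusted p = 0.000391, adjusted p = 0.14), as the 1 member below 0.05 in the unadjusted p value. DESeq2 called it (-1.20, adjusted p = 0.00193), and edgeR called it without P7 Homo replicate 5 (-1.31, adjusted p = 0.0219), the P7 Homo library with the lowest *Nrxn3* level (18 CPM). Without P7 Homo replicates 6 and 7, which leaves only replicate 5 in that group, it was -0.82. The sign was negative in all alternatives run, from -1.31 to -0.82. The other 8 members lay between -0.23 for *Nlgn2* and 0.25 for *Lrrtm1*. The 2 age comparisons and the 2 genotype comparisons in counts share libraries, so their values are not independent of one another.

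The wider set of synaptic adhesion genes and partners comprised 75 genes, of which 73 were found. Of the 68 that could be tested at P22, 3 passed as higher in Homo and 1 as lower, beside 3.15% of all genes. The gene that was lower was *Lrrtm3*, with 41.2, 44.6 and 47.8 CPM in Het and 24.8, 30.8 and 31.2 CPM in Homo libraries (log2 -0.62, SE 0.098, edgeR adjusted p = 0.00482). The genes called higher at P22 were *Nectin1*, an adhesion gene related to *Cadm1* that is widely expressed in epithelia (listed as *Pvrl1*; log2 0.66, SE 0.0846, edgeR adjusted p = 0.00217), *Slitrk6*, a postsynaptic organizer of the leucine-rich repeat type known in the inner ear (0.61, SE 0.166, adjusted p = 0.039), and *C1ql1*, a secreted C1q-type synaptic organizer (0.54, SE 0.149, adjusted p = 0.0389). *Nectin1* lay between 33.7 and 40.9 CPM in Het and between 54.8 and 60.9 CPM in Homo libraries, without overlap. None of the 14 intracellular partners tested, such as the scaffolds that bind neurexin and neuroligin tails, was called at P22 (median log2 fold change -0.15), nor any of the 3 receptor phosphatases (-0.13) or 3 latrophilins (-0.20). None of 72 was called in P7 counts. In P7 rounded TPM, 4 of 58 were called, beside 0.826% of all genes, and none was with the length trend removed. All 4 were higher: *Tenm3*, a teneurin (0.60, SE 0.104, limma adjusted p = 0.0435), *Mdga1*, which encodes an inhibitor of neuroligin binding (0.87, SE 0.224, adjusted p = 0.0479), *Clstn2*, a calsyntenin (0.51, SE 0.131, adjusted p = 0.0479), and *Apba1*, a presynaptic adaptor (0.58, SE 0.157, adjusted p = 0.0498). In the other P7 batch, in counts, *Mdga1* (-1.05, SE 0.353), *Clstn2* (-0.39, SE 0.147) and *Tenm3* (-0.06, SE 0.071) were negative. *Apba1* was positive there (0.09, SE 0.209), and none was called. All 4 had log2 fold changes of a negative sign at P22 (*Mdga1* -0.26, *Apba1* -0.14, *Tenm3* -0.03 and *Clstn2* -0.02), none called. With age, 27 of 72 rose and 18 fell in Het, beside 51.8% of all genes called in either direction, including a fall of all 4 teneurins and a rise of 9 of 14 intracellular partners against 3 that fell, and the median over the 72 was 0.07 in Het and -0.07 in Homo libraries.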

How the data were processed

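RNA-seq was analysed in 20 libraries from 2 tables of 24411 genes. According to the paper's methods, poly(A) RNA was sequenced paired-end on a NovaSeq and processed with an nf-core pipeline. The submitters' processing notes name STAR, Salmon, DESeq2 and mm10. The annotation release and the strand setting are not given in the sources used here. The authors deposited estimated counts per gene for P22 and for P7 replicates 5 to 7, which were rounded to whole numbers here. For P7 replicates 1 to 4 the deposited values were TPM that the authors had rounded to whole numbers, treated here as a score without a count model. No column was left unmapped.

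Counts were tested with edgeR's quasi-likelihood test (edgeR 4.0.16, R 4.3.3, TMM, filterByExpr), the genotypes within each age over the libraries of that set, and age and its interaction with genotype in 1 fit with 4 group means. Rounded TPM was tested with limma 3.58.1 on log2(TMM-scaled value + 1), with a trend, where the mean TPM reached 5. p values were adjusted by Benjamini-Hochberg over all genes tested. DESeq2 1.42.0 was an alternative. Fold changes are Homo over Het or P22 over P7. Transcript lengths and gene positions came from GENCODE M21. Python 3.11.15, pandas 2.3.3 and matplotlib 3.10.9 made tables and figures. On simulated data with 200 genes changed by 1 on the log2 scale, the P22 test recovered 92.5% (15330 genes tested), the P7 count test 79.0% (15926), the P7 TPM test 88.0% (11652), the age tests 86.5% and 88.0% (16090) and the interaction 69.5% (16095). In the same order, 7, 11, 6, 8, 1 and 8 unchanged genes were called. Each gene was drawn independently, so the simulated TPM held no trend on transcript length. In the count tests the changed genes were drawn from those not at low counts. Changes smaller than 1 were not simulated, so the recovery of smaller differences is not known.

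The members, the related genes and the marker lists were chosen with earlier results of these data known. By the rule for named genes, all 9 members are described in every comparison, with those of the related genes that were called in a genotype comparison, the paralog *Lrrtm3*, and *Adgrb1*. Replicate libraries differed by more than sampling noise (chi-square per degree of freedom from 11.4 to 70.1), so none was counted as a repeat of another. Alternatives were DESeq2, its size factors, library size alone or neuron markers as the scale, no filter, no fold limit, the replicate number as a block, removal of a length trend, and leaving out each library. No protein sequences are shown. Some items of the rule are not reported here.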

Additional observations from a re-analysis of the deposited data

Results flagged for a closer look

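In rounded TPM at P7, 3 of 22 groups of 4 libraries held a value far from the others. *Nlgn1* was at 2 in Het replicate 4 and at 4 in the other 3 Het libraries. *Nlgn3* was at 16 in Homo replicate 1 and at 18 in the other 3 Homo libraries. *Lrrtm2* was at 2 in Het replicate 2 and at 1 in the other 3 Het libraries. Such a test picks out about 1 in 20 groups by chance, and values in whole numbers tie easily. *Nrxn2* differed in sign between ages and batches. It was at -0.19 on the log2 scale at P22, where each of 3 Homo libraries was under each of 3 Het libraries, and at 0.52 at P7 in rounded TPM, where each of 4 Homo libraries was above each of 4 Het libraries. The sets differ in unit and age, and the difference between them was not tested.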

How the results depend on the processing

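The members called kept their direction in every alternative run. Depth limits *Nrxn3*, *Nlgn1* and *Lrrtm2* most, which had fewer than 180 counts in each P22 library. Without a fold limit, 3 members were called in P7 rounded TPM, beside 942 of 11740 genes tested. In the Homo age comparison 8 members were called without it, beside 11088 of 16314 genes tested. Scaling to neuron markers moved the median of all genes from 0.01 to 0.34 at P22 and from 0 to 0.33 in P7 counts. At P22 it called 2 members and turned *Nrxn2* (0.14), *Nlgn2* (0.28), *Nlgn3* (0.27), *Lrrtm1* (0.25) and *Cadm1* (0.13) positive. In P7 counts it turned *Nrxn2* (0.37), *Nlgn3* (0.31), *Lrrtm1* (0.053), *Lrrtm4* (0.23) and *Cadm1* (0.22) positive. Such a shift of all genes turns small negative differences positive, so these signs are not particular to the members. DESeq2 called 1 member in the interaction. *Nrxn2* in P7 counts, at 0 within its error, changed sign in DESeq2 (0.0007), with DESeq2's size factors (0.0003) and with the replicate block (0.016), and *Lrrtm2* in the interaction likewise (-0.0036, -0.0059 and -0.0096). With library size alone, *Cadm1* was at -0.21 in the age comparison of both genotypes. In P7 rounded TPM no member (0) was called without a filter, with the replicate block or with the length trend removed, the last turning *Lrrtm4* to -0.032.

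Same-numbered libraries of the genotypes showed no clear joint deviation (correlations from -0.226 to 0.0685), so no pairing was detected. With so few libraries in each group, this cannot exclude that the numbers pair them. With the replicate block, 1 member was called at P22, 0 in P7 counts and 0 in the interaction. Over all genes the block gave 466 calls at P22 in place of 487, 2 in the interaction in place of 5, and 0 in rounded TPM in place of 97.

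Without P7 Homo replicates 6 and 7, chosen after seeing the data and with the lone library assumed to vary like the other groups, the interaction turned for *Nrxn2* (0.091), *Nlgn1* (0.26), *Nlgn3* (-0.017) and *Cadm1* (0.14), and *Nlgn3* turned in P7 counts (0.013). Leaving out 1 library at a time gave 0 to 1 members called at P22, in rounded TPM and in the interaction, 6 to 8 in the Het and 5 to 6 in the Homo age comparison. Over all genes, the same age fits called 8036 to 8574 genes in Het and 7649 to 8062 in Homo, of 16469 to 16541 tested. Uncalled members then crossed 0: at P22 *Lrrtm1* (-0.17 to 0.064) and *Lrrtm4* (-0.031 to 0.20); in P7 counts *Nrxn2* (-0.12 to 0.20), *Nlgn3* (-0.25 to 0.10), *Lrrtm4* (-0.16 to 0.068) and *Cadm1* (-0.32 to 0.034); in the Het age comparison *Cadm1* (-0.082 to 0.29); in the interaction *Nlgn1* (-0.14 to 0.12), *Nlgn3* (-0.15 to 0.22), *Lrrtm2* (-0.26 to 0.15), *Lrrtm4* (-0.004 to 0.27) and *Cadm1* (-0.22 to 0.16); in rounded TPM *Lrrtm4* (-0.0022 to 0.092). The cause was not tested.

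Over all genes, calls at P22 numbered 1895 without a fold limit, 2883 with neuron scaling and 270, 285 and 282 without Het replicate 1, Het replicate 3 and Homo replicate 2. P7 counts gave 51 in DESeq2, 23 with neuron scaling and 4 without Homo replicates 6 and 7. Rounded TPM gave 942 without a fold limit, 292 as deposited and 0 without a filter or length trend. The interaction gave 123 in DESeq2, 8 without a filter, 89 without Homo replicates 6 and 7 and 0 to 101 leaving out 1 library.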

Other observations

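Across the 12 libraries in counts, the deviations of each member from its group means were set against those of every other gene tested. This is a description over libraries that share depth and dissection, with no test. The genes outside the list were picked as those with the highest r of all genes tested, so high values come in part from that choice. Within the list, *Nrxn2* and *Cadm1* deviated together most (Pearson r 0.91), followed by *Nlgn3* and *Cadm1* (0.88) and *Nrxn2* and *Lrrtm1* (0.81), while *Lrrtm4* and *Nlgn2* went in opposite directions (-0.65). P7 Het replicate 6 had the highest *Nrxn2*, *Cadm1*, *Nlgn3* and *Lrrtm1* levels of the P7 libraries in counts, and r without that library was not computed. *Nrxn3*, with r between -0.52 and 0.24, and *Nlgn2*, with r between -0.65 and 0.16, were least like the other members. Outside the list, the genes most like *Cadm1* were *Kif3c*, a kinesin, and *Syt2*, a synaptotagmin of fast synapses (both 0.99), and *Nlgn3* was close to *Scn8a*, a neuronal sodium channel (0.97). *Nrxn2* was nearest to *Slc29a2* (0.99) and *Ccdc85a*, *Nrxn3* to *Orc5* (0.96) and *Prkrip1* (0.94). *Nlgn1* was nearest to *Kcnd2*, a potassium channel (0.95), and *Btbd1* (0.94), and *Nlgn2* to *Usp40* (0.99) and *Hnrnpa2b1* (0.98). *Lrrtm1* was nearest to *Slc37a4* and *Slc35f4* (both 0.96), *Lrrtm2* to *Soat2* (0.98) and *Ptpro* (0.96), and *Lrrtm4* to *Dennd2a* (0.96) and *Bcar3* (0.95).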
